A study of Mus musculus with 9 samples.

Results

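Mitochondrial solute carriers are proteins of the inner mitochondrial membrane that exchange metabolites, nucleotides, phosphate and cofactors between the cytosol and the matrix. They are encoded in the nucleus, share a fold of repeated membrane-spanning units, and most are named Slc25a followed by a number. In liver they feed oxidative phosphorylation with ADP and phosphate, carry malate, aspartate, glutamate and citrate between mitochondrial and cytosolic pathways, and thereby link the respiratory chain to gluconeogenesis, amino acid breakdown and fatty acid synthesis.

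All genes in the array annotation whose symbol starts with Slc25a were taken, without Slc25a13, Slc25a15, Slc25a17 and Slc25a20, which gave 40 of the 18193 genes tested. The rule uses symbols and no measured value, but it was chosen with earlier results of these data known. Liver RNA of male mice aged 14 weeks was measured in 4 db/db samples (strain BKS.Cg-Leprdb) and 5 BKS samples (C57BL/KSlepr+/+), each on its own Affymetrix array. The db/db mouse lacks a working long leptin receptor (Lepr mutation) and, per the study's design, was obese and diabetic with a fatty liver at this age. The BKS mice were littermates with the intact receptor gene, and both groups ate regular chow without restriction. The study asks how mitochondria and peroxisomes are affected in this liver. Values below are log2(signal + 16) after quantile normalization, 1 probe set per gene, and differences are db/db minus BKS. "Rose", "fell" and "called" refer to limma with an adjusted p (Benjamini-Hochberg over all 18193 genes) under 0.05. Samples are numbered in the labels without a statement that the mice were separate animals, and p-values then reflect only sample-to-sample spread, which may be technical. The word livers below stands for these samples.

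The median signal of an array ran from 67.4 to 110.8, and precision is limited by how few arrays there are. The arrays fell into 2 sets by the signal of the control probe sets for 18S ribosomal RNA, which was 1114 to 9835 on db/db 3, db/db 4, BKS 4 and BKS 5 and only 13.9 to 26.8 on the remaining 5 arrays. Each set holds both genotypes, and values within each set are given where they bear on a result. Lepr, the mutated gene, had a log2 fold change of -0.87 (adjusted p = 0.290), and since the db mutation alters splicing this does not check the genotype. Hepatocyte markers were bright in both groups and limma called 0 of 5 (2 at an unadjusted p under 0.05), with a summed signal of 183800 to 205400 in db/db livers and 196200 to 205600 in BKS livers. Markers of Kupffer cells and macrophages had a summed signal of 1950 to 4859 in db/db livers and 3148 to 8577 in BKS livers, with 0 of 6 called by limma (3 at an unadjusted p under 0.05). Lists for T and B cells, endothelium, stellate cells, bile duct, skeletal muscle and fat cells held no called marker (limma, 0 to 2 in each at an unadjusted p under 0.05). In the erythroid list 1 of 3 fell (Alas2, the erythroid enzyme of heme synthesis, -1.20, adjusted p = 0.0114), with a summed signal of 912.9 to 2209 in db/db livers and 2317 to 3949 in BKS livers. That sum was mostly Alas2, while Hba-a1 (0.07) and Slc4a1 (-0.02) were dim and not called. In the pancreas list 1 of 4 fell (Cela1, an elastase, -1.45, adjusted p = 0.00249), with 1188 to 1402 in db/db livers and 1996 to 4639 in BKS livers. That sum was mostly Cela1, while Prss2 (0.12), Cpb1 (-0.22) and Pnliprp1 (0.61) were dimmer and not called. In whole liver, fewer cells of a type and less RNA per cell cannot be told apart, and the part of other cell types in the results below was not tested.

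Of the 40 carriers 7 rose and 2 fell in db/db liver. Over all genes 2.89% rose and 2.60% fell, 5.49% in either direction. Those that rose were Slc25a47, Slc25a22, Slc25a10, Slc25a5, Slc25a48, Slc25a44 and Slc25a12, and those that fell were Slc25a30 and Slc25a33. The median log2 fold change of the 40 carriers was 0.08, against -0.00217 over all genes, and the values ran from -2.22 to 2.04. By transported substrate, 4 of 8 carriers grouped with amino acids rose, among them Slc25a48, which is reported to import choline. So did 1 of 8 for adenine nucleotides and phosphate, 1 of 5 for di- and tricarboxylates and 1 of 5 without a settled substrate. Of 9 carriers for cofactors, nucleotides, NAD, folate and glutathione 1 fell, and of 3 that resemble uncoupling proteins 1 fell. Neither of the 2 iron carriers was called. Groups did not overlap for 12 carriers, 9 higher and 3 lower in db/db liver, where over all genes 4.73% were higher and 4.42% lower without overlap. All 9 called carriers are among these 12.

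**Figure D1:**
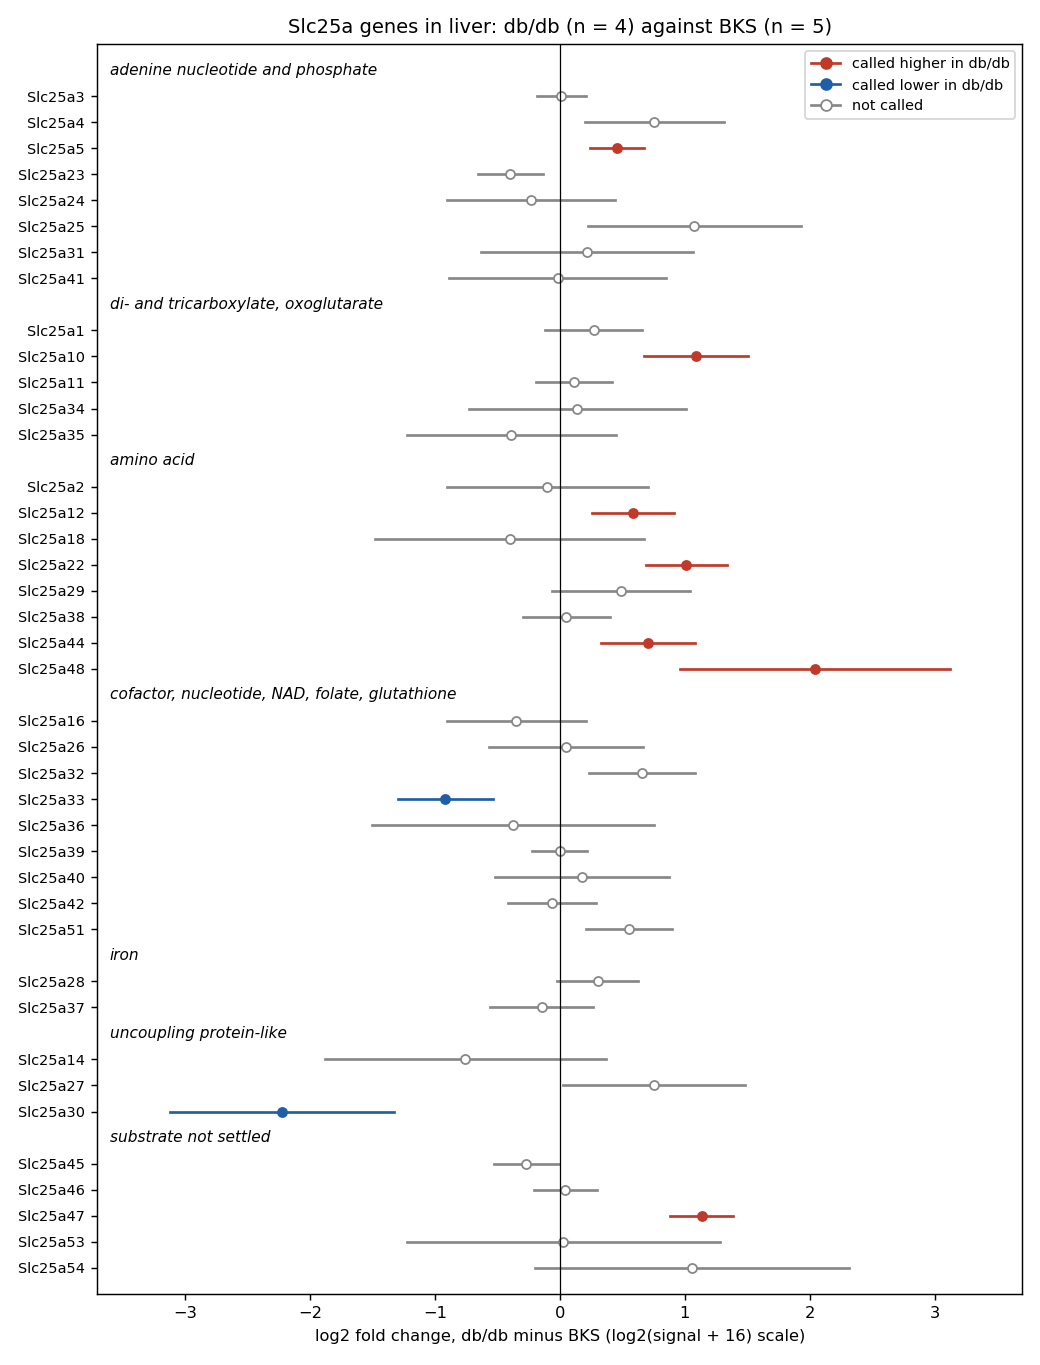
Log2 fold change (db/db minus BKS, horizontal axis) of the 40 carriers, grouped by transported substrate, with 95% confidence intervals from limma. Filled points passed the test (red higher, blue lower in db/db). Slc25a48 lies at 2.04 and Slc25a30 at -2.22, and the intervals of Slc25a3, Slc25a39 and Slc25a46 are narrow and span 0.

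Promoter windows of the called carriers are shown first, because they are the control regions nearest to the starts of the carriers that rose or fell. The windows run from 250 bases before to 50 after each annotated start and come from RefSeq (build GRCm38.p6). They were found by symbol for 30 of the 40 carriers. Of the called carriers 7 had 1 window, and the 4 of these with the smallest adjusted p are shown: Slc25a47 and Slc25a10, which rose, and Slc25a30 and Slc25a33, which fell. Capitals mark matches on either strand to the GC box GGGCGG, the CCAAT box CCAAT, the E-box CACGTG and the nuclear receptor motif AGGTCA, which were chosen for display after the counts were seen.
Slc25a47, chr12:108850879-108851178, plus strand: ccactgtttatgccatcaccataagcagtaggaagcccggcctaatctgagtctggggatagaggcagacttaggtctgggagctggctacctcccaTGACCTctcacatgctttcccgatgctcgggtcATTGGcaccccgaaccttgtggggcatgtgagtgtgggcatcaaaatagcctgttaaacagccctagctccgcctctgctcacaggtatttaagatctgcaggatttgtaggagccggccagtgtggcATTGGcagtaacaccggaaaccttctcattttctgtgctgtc
Slc25a10, chr11:120491587-120491886, plus strand: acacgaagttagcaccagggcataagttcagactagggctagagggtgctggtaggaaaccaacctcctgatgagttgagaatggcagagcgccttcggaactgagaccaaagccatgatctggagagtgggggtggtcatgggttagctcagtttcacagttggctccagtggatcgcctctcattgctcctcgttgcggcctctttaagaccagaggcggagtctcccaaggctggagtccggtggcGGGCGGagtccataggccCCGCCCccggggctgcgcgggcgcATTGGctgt
Slc25a30, chr14:75786988-75787287, minus strand: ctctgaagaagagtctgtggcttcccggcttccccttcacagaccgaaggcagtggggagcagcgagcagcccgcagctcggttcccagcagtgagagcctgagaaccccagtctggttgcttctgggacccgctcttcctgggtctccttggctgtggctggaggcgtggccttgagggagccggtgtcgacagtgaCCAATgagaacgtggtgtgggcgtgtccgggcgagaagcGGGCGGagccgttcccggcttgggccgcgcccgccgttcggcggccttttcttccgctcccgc
Slc25a33, chr4:149774218-149774517, minus strand: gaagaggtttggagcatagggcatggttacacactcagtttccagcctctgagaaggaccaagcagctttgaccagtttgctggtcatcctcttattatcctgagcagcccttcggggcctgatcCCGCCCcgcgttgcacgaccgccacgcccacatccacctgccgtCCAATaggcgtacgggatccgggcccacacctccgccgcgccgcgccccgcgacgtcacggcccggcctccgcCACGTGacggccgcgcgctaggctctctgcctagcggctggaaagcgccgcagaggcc

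The windows differ in what they hold. The Slc25a47 window has 2 CCAAT boxes and 1 AGGTCA motif, no GC box and a GC content of 53.3%. Windows of Slc25a10, Slc25a30 and Slc25a33 have GC boxes and a CCAAT box, with a GC content of 59.7%, 66.7% and 66%, and Slc25a33 also has an E-box. The windows of the other called carriers with 1 window hold less: those of Slc25a5 and Slc25a48 have GC boxes but no CCAAT box, E-box or AGGTCA, and that of Slc25a12 has none of these motifs. Among the 30 carriers, 26 (86.7%) have a GC box in at least 1 window, against 57.3% of the 14452 tested genes with a window, and 16 (53.3%) have a CCAAT box, against 42% of these genes. An E-box was found for 5 (16.7%, against 10.2%), AGGTCA for 4 (13.3%, against 16.5%) and a TATAAA box for 1, Slc25a18 (3.33%, against 11.5%). Altogether 12 motifs were searched on both strands. The NRF1 motif was found for 3 carriers (10%, against 11.4%), among them Slc25a10, and TTCNNNGAA, the STAT5 motif, for 2 (6.67%, against 8.57%). No carrier window held the ERR motif TCAAGGTCA (0.401% of genes) or the nuclear receptor direct repeat with a spacer of 1 base (0.0484%), both of which contain AGGTCA, nor the FOX motif TGTTTAC (3.4%), the glucocorticoid response element (0.0138%) or the HNF1 motif (0% of genes). Of the 8 called carriers with a window 6 have a GC box and 5 a CCAAT box. These are matches of letters and were not tested. By position in the RefSeq table, 3 pairs of carriers are direct neighbours among protein-coding genes: Slc25a29 with Slc25a47, Slc25a41 with Slc25a23, and Slc25a54 with Slc25a24. In none of these pairs were both members called.

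The adenine nucleotide carriers exchange matrix ATP for cytosolic ADP, and Slc25a5, known as ANT2, is a form found in many tissues including liver. Slc25a5 stood at 14.66, 14.83, 14.79 and 14.65 in db/db livers, against 14.09, 14.34, 14.25, 14.30 and 14.40 in BKS livers. All db/db livers lay above all BKS livers, by a small step on a bright signal. It rose 1.37-fold (log2 fold change 0.46, SE 0.10, adjusted p = 0.0158). Without db/db 3 the call was lost (adjusted p = 0.0585), as it was in 7 of the 15 alternatives that kept or regrouped the arrays.

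ANT1, encoded by Slc25a4 and typical of heart and skeletal muscle, was at 8.44, 7.92, 8.85 and 8.17 in db/db livers, against 7.56, 7.91, 7.37, 7.76 and 7.36 in BKS livers. The groups did not overlap, but db/db 2 and BKS 2 were almost level, and the change of 0.75 did not pass (SE 0.26, adjusted p = 0.123). Skeletal muscle markers had a summed signal of 136.6 to 327.9 in db/db livers and 201.4 to 351.6 in BKS livers. Slc25a31, the form known from testis, was dim, with a difference of 0.22 (95% interval -0.63 to 1.06). The phosphate carrier Slc25a3, which supplies ATP synthase, was at 14.32, 14.43, 14.48 and 14.38 in db/db livers, against 14.41, 14.34, 14.49, 14.36 and 14.35 in BKS livers. These groups lay on top of each other, and the interval of the difference, -0.18 to 0.21, includes 0 (adjusted p = 0.967).

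Carriers that exchange ATP-Mg for phosphate set the size of the matrix nucleotide pool, and calcium activates Slc25a23, Slc25a24 and Slc25a25. Slc25a25 was at 11.44, 11.72, 9.60 and 11.54 in db/db livers, against 9.58, 10.24, 10.54, 9.24 and 10.39 in BKS livers. Among these, db/db 1, 2 and 4 lay above every BKS liver, while db/db 3 lay within the BKS range. With all arrays the change of 1.08 did not pass (SE 0.39, adjusted p = 0.156). Of 9 refits lacking an array 1 called it, the one without db/db 3, the value that stood apart (1.56, adjusted p = 0.00619). In the others adjusted p reached 0.338. Slc25a23 was at 11.94, 11.94, 11.54 and 11.50 in db/db livers, against 12.18, 12.06, 12.08, 12.13 and 12.19 in BKS livers. It was lower in all db/db livers, and more so in db/db 3 and db/db 4. The difference was -0.40 (SE 0.12, adjusted p = 0.0785), -0.38 with the 18S set as a block (adjusted p = 0.0446), with -0.17 for low and -0.63 for high 18S arrays. Slc25a24 (-0.23, adjusted p = 0.783) and Slc25a41, a carrier of the same exchange (-0.02, adjusted p = 0.989), were dim and had overlapping groups.

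Dicarboxylate and citrate carriers move tricarboxylic acid cycle intermediates out of the matrix, where malate serves gluconeogenesis and citrate serves fatty acid synthesis. Slc25a10, which exchanges malate or succinate for phosphate, was at 12.87, 12.87, 12.91 and 12.47 in db/db livers, against 11.22, 11.96, 11.32, 11.71 and 12.24 in BKS livers. BKS livers spread over more than 1 unit and db/db livers, apart from db/db 4, were nearly equal. It rose 2.13-fold (1.09, SE 0.19, adjusted p = 0.00466), by 1.37 where 18S was low and 0.71 where it was high, and its other probe set gave 1.13.

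Other carriers of this group did not pass. Slc25a1, the citrate carrier, was at 12.86, 13.22, 12.87 and 12.34 in db/db livers, against 12.50, 12.74, 12.68, 12.08 and 12.77 in BKS livers. In each group the lowest of these values came from a high 18S array, db/db 4 and BKS 4, and the difference of 0.27 did not pass (95% interval -0.12 to 0.66, adjusted p = 0.489). Slc25a11, which exchanges oxoglutarate for malate in the malate-aspartate shuttle, was at 11.49, 11.56, 11.12 and 11.01 in db/db livers, against 11.11, 11.02, 11.33, 11.11 and 11.35 in BKS livers. Its groups overlapped, with 0.37 for low and -0.16 for high 18S arrays (0.11 over all, 95% interval -0.19 to 0.41). Slc25a34 and Slc25a35, whose substrates are less settled, were at 0.14 and -0.39 with wide intervals (adjusted p = 0.908 and 0.680).

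The carriers grouped with amino acids gave the most calls, but those of Slc25a12, Slc25a44 and Slc25a48 were lost in 8, 5 and 6 of 9 refits lacking an array. Slc25a22, which brings glutamate into the matrix together with a proton, was at 11.91, 12.41, 12.25 and 12.22 in db/db livers, against 11.00, 11.39, 11.05, 10.95 and 11.54 in BKS livers. Every db/db liver lay above every BKS liver, and the step was nearly the same in both sets of arrays (1.01 with low and 0.99 with high 18S). It rose 2.02-fold (1.01, SE 0.15, adjusted p = 0.00128), and it passed in each of the 24 alternatives tried. Slc25a22 has only 1 probe set, so the 2 alternatives that changed the probe set rule could not alter its values. Slc25a18, a second glutamate carrier known from brain, was dim and varied by more than 1 unit within both groups (-0.40, adjusted p = 0.758).

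The aspartate-glutamate carrier Slc25a12, known as aralar and a part of the malate-aspartate shuttle, was at 9.89, 10.09, 9.64 and 9.84 in db/db livers, against 9.03, 9.37, 9.40, 9.34 and 9.27 in BKS livers. The groups did not overlap and it rose by 0.58 (SE 0.15, adjusted p = 0.0401). Its call was lost when any array other than db/db 3 was dropped, 8 of 9 cases in all (adjusted p up to 0.120). Its other 2 probe sets, both dim, gave 0.31 and 0.16.

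Slc25a44, which carries branched-chain amino acids, was at 10.87, 10.83, 10.83 and 11.15 in db/db livers, against 9.71, 10.30, 10.06, 10.38 and 10.62 in BKS livers. The db/db livers 1, 2 and 3 were nearly equal and BKS livers spread over almost 1 unit. It rose 1.63-fold (0.71, SE 0.17, adjusted p = 0.0314), and the call was lost without BKS 3 or any 1 of the db/db arrays (adjusted p up to 0.0938). A second probe set gave 0.49 (SE 0.29), and the last, dim, gave -0.61 (SE 0.56). Neither of these passed, so the sign of the Slc25a44 estimate differed between probe sets without a call in the other direction.

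The largest rise was that of Slc25a48, grouped here with amino acids and reported to import choline. It was at 7.67, 8.22, 8.92 and 8.90 in db/db livers, against 5.34, 7.34, 6.53, 5.25 and 7.49 in BKS livers. BKS livers differed from each other by over 2 units at a low signal, and the highest of them stood just under db/db 1. The 4.11-fold change (2.04, SE 0.50, adjusted p = 0.0313) missed the threshold in 6 of 9 refits, when the array dropped was db/db 2, db/db 3, db/db 4, BKS 1, BKS 3 or BKS 4 (adjusted p up to 0.104). Its size also depends on the amount added before the logarithm, and its other 2 probe sets gave 0.49 and 0.25. Slc25a29, which carries basic amino acids and lies next to Slc25a47, was at 0.49 (adjusted p = 0.353). Slc25a38, which carries glycine for heme synthesis, was at 0.05 (95% interval -0.30 to 0.40), and Slc25a2, an ornithine carrier, was dim and at -0.10 (adjusted p = 0.930).

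**Figure D2:**
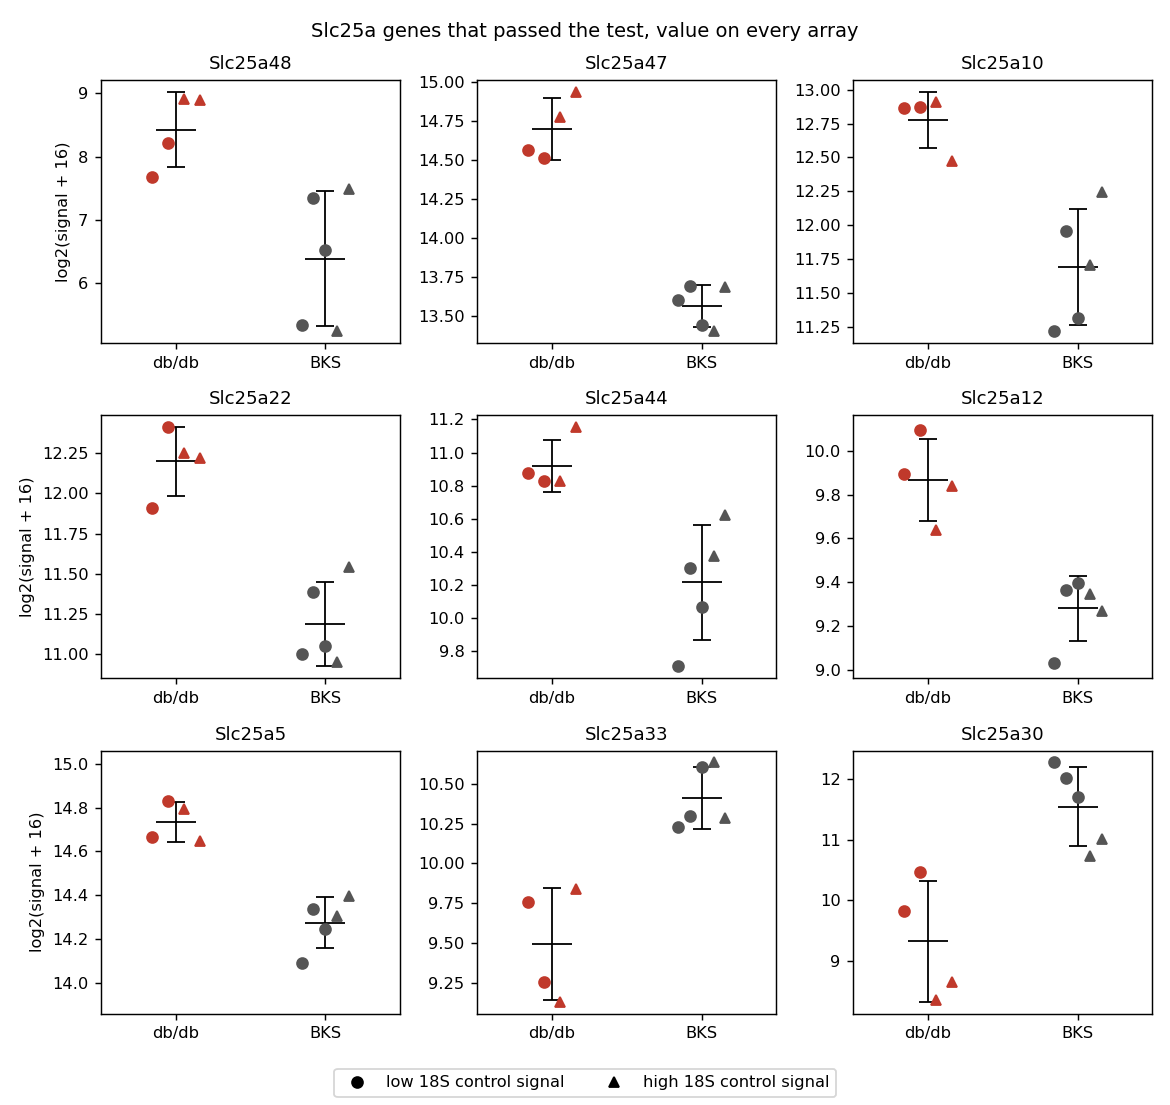
Log2(signal + 16) of the 9 called carriers on every array, db/db left and BKS right, with the mean and SD as black bars (n = 4 and 5). Circles are arrays with a low and triangles arrays with a high 18S control signal; the 4 db/db points lie wholly above or wholly below the 5 BKS points in each panel, and the triangles of Slc25a30 lie below its circles in both groups.

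Carriers of nucleotides and cofactors gave 1 call. Slc25a33, which carries pyrimidine nucleotides and is induced by insulin-like growth factor signalling in cultured cells, was at 9.75, 9.26, 9.13 and 9.84 in db/db livers, against 10.23, 10.30, 10.61, 10.63 and 10.28 in BKS livers. All db/db livers lay below all BKS livers, with db/db 1 and db/db 4 nearer to them. It fell 1.89-fold (-0.92, SE 0.18, adjusted p = 0.00794), by 0.87 with low and 0.97 with high 18S. The call held without any 1 array (adjusted p up to 0.03125), though not within either 18S set alone (adjusted p = 0.0751 and 0.121). It was also lost when the arrays were centred on the median. Slc25a36, the other pyrimidine nucleotide carrier, was dim and scattered, with BKS 4 and db/db 3 far below the rest (-0.38, adjusted p = 0.789).

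Slc25a51, which brings NAD into mitochondria, was at 11.73, 11.54, 11.40 and 11.85 in db/db livers, against 11.14, 10.92, 11.42, 10.65 and 11.25 in BKS livers. Only db/db 3 and BKS 3 overlapped. The difference of 0.55 did not pass (SE 0.16, adjusted p = 0.0630), and it passed with the 18S block (0.57, adjusted p = 0.0370). A second probe set gave 0.53 and the last, dim, gave 0.07. Slc25a32, which carries folate and is linked to mitochondrial FAD, averaged 8.77 ± 0.20 in db/db livers and 8.11 ± 0.16 in BKS livers (SD, n = 4 and 5). Its groups did not overlap, but the difference of 0.66 did not pass (SE 0.20, adjusted p = 0.0752, and 0.0520 with the block), and its other 2 probe sets gave 0.03 and -0.02.

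Carriers linked to glutathione and coenzyme A showed no call. Slc25a39, needed for glutathione import into mitochondria, was bright and flat, 15.07 ± 0.11 in db/db livers and 15.08 ± 0.10 in BKS livers (SD, n = 4 and 5), with a 95% interval of the difference from -0.22 to 0.21. Of its other 4 probe sets 1 gave 0.49 (adjusted p = 0.110 over all probe sets). Slc25a40, its close relative, was at 0.17 (adjusted p = 0.845). Slc25a42, which carries coenzyme A, was at -0.06 (95% interval -0.41 to 0.29), and Slc25a16, also linked to coenzyme A, at -0.35 (adjusted p = 0.547). Slc25a26, which carries S-adenosylmethionine, was at 0.05 (adjusted p = 0.958). The iron carriers Slc25a28 and Slc25a37, known as mitoferrins, were at 0.30 and -0.15 (adjusted p = 0.330 and 0.771), beside the lower erythroid Alas2 given above.

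The largest fall was that of Slc25a30, a carrier that resembles uncoupling proteins and is known from kidney. It was at 9.83, 10.48, 8.35 and 8.64 in db/db livers, against 12.28, 12.02, 11.70, 10.73 and 11.02 in BKS livers. Within each genotype the high 18S arrays were the lower ones, and within each set db/db livers lay below BKS livers. It fell 4.67-fold (-2.22, SE 0.42, adjusted p = 0.00626), with -1.85 for low and -2.38 for high 18S arrays, and -2.09 once the 18S set was a block (adjusted p = 1.08e-05). The step between the high and the low 18S arrays was itself -1.36 in that fit (adjusted p = 8.31e-04), and of the 40 carriers 3 had such a step past the threshold (Slc25a30, Slc25a16 and Slc25a53), against 3.50% of all genes. Of its 5 probe sets 4 had negative differences, from -2.45 to -0.79, of which 2 passed, and the dimmest gave 0.26. Slc25a14 and Slc25a27, known from brain, were dim, at -0.76 and 0.75 (adjusted p = 0.510 and 0.265).

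Slc25a47, a carrier found almost only in hepatocytes and with a substrate still under study, had the smallest adjusted p. It was at 14.56, 14.51, 14.78 and 14.94 in db/db livers, against 13.60, 13.69, 13.44, 13.40 and 13.69 in BKS livers. The gap between the groups was wider than the range within either group. It rose 2.19-fold (1.13, SE 0.12, adjusted p = 8.58e-05), by 0.96 with low and 1.31 with high 18S, and passed in each of the 24 alternatives. Slc25a47 too has only 1 probe set, so a change of the probe set rule could not alter its values. Slc25a46, an outer membrane protein of the family that acts in mitochondrial shape, was at 0.04 (95% interval -0.21 to 0.30). Slc25a45 was at -0.27 (adjusted p = 0.265), and Slc25a53 and Slc25a54 were dim, at 0.03 and 1.06 (adjusted p = 0.989 and 0.384).

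Probe sets of a carrier did not always move alike. The 40 carriers had 86 probe sets, and 20 carriers had more than 1. When each probe set was tested on its own, 9 of the 86 were higher and 3 lower in db/db liver, against 1.97% and 1.51% of the 34945 probe sets with 1 symbol. Slc25a5 had 3 of 8 called and a range of -0.06 to 0.72, both probe sets of Slc25a10 were called, and 2 of 5 were called for Slc25a30. Slc25a12 had none called in that test (adjusted p = 0.0605 for the probe set used). No carrier had probe sets of opposite sign that both reached an unadjusted p under 0.05. Several probe sets of Slc25a5 carry the manufacturer's mark for possible hybridisation with related sequences, and the probe set used is among them. The level of Slc25a5 may therefore include near-identical copies. The probe set used for Slc25a39 carries the same mark.

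**Figure D3:**
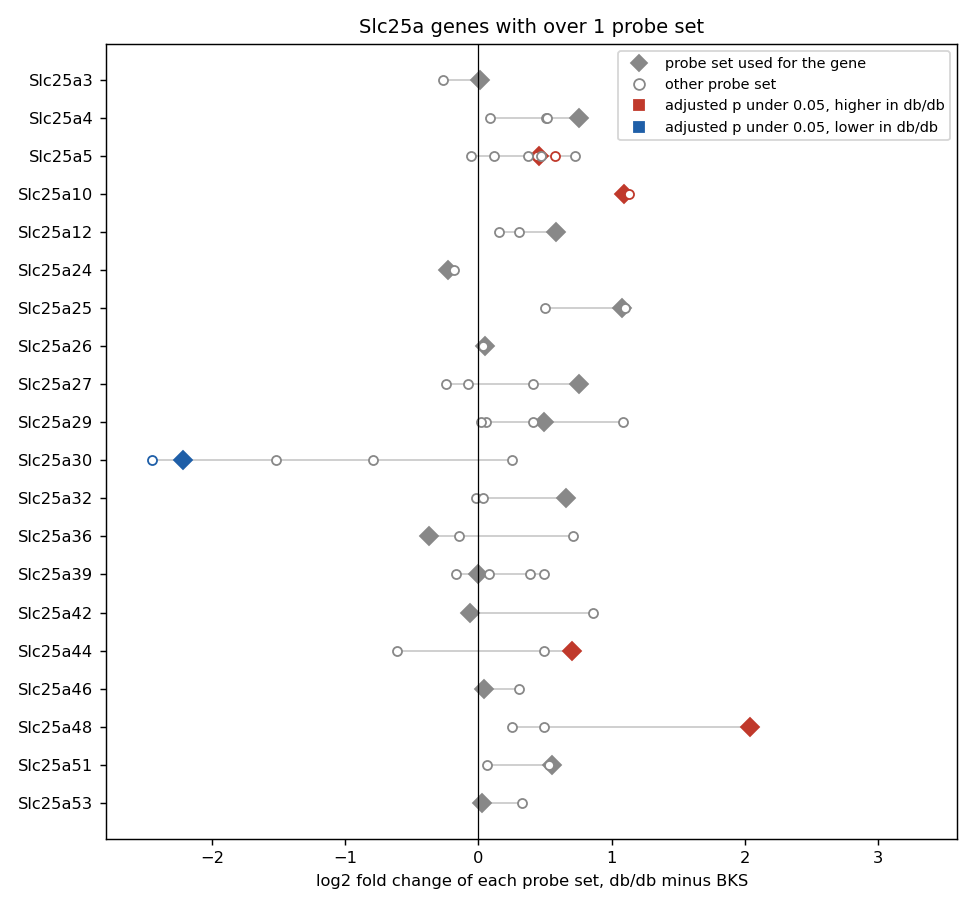
Log2 fold change (db/db minus BKS, horizontal axis) of every probe set of the 20 carriers with more than 1. Diamonds are the probe sets used for the gene, circles the others, and red and blue mark an adjusted p under 0.05 over all probe sets; the probe sets of Slc25a48 run from 0.25 to 2.04 and those of Slc25a30 from -2.45 to 0.26.

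The 18S split bore unevenly on the carriers. With the split as a block 8 rose and 3 fell, against 4.11% and 4.13% of all genes, and the additions to the 9 called carriers were Slc25a51 and Slc25a23. In that fit 2 of 6 Kupffer cell and macrophage markers (Adgre1 and Cd5l) and 1 of 4 bile duct markers (Sox9) were also lower. Higher were 1 of 6 endothelial markers (Pecam1) and 1 of 6 stellate cell markers (Lrat). Each of these lists also had uncalled members of the other sign, such as Marco (0.22), Epcam (0.13), Cdh5 (-0.38) and Col3a1 (-0.45). The part of these cell types in the carriers' values was not tested. The 9 called carriers had the direction of their call in both sets of arrays, which follows from groups that do not overlap. Of all 40 carriers 13 had differences of opposite sign in the 2 sets. The median over the 40 was 0.32 with low and 0.08 with high 18S, against 0.02 and -0.04 over all genes.

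**Figure D4:**
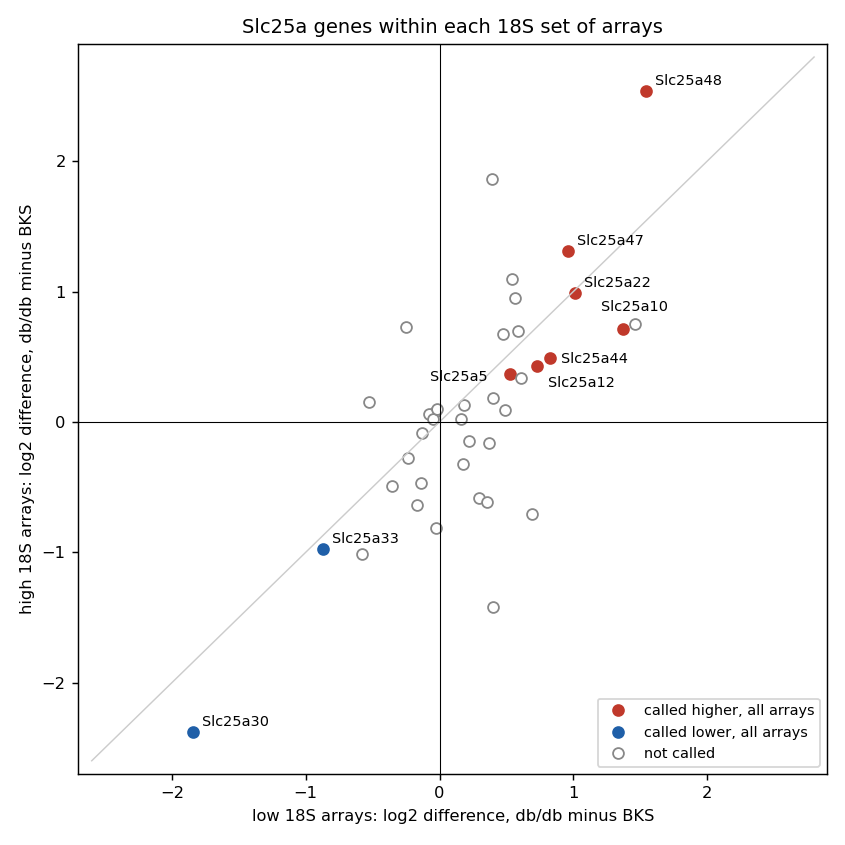
Difference of group means (db/db minus BKS, log2) within the low 18S arrays (horizontal) and within the high 18S arrays (vertical) for the 40 carriers. Red and blue points are the called carriers, the grey line marks equal differences, and Slc25a22 lies next to it at 1.01 and 0.99, while 13 carriers lie in the quadrants of opposite sign.

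Genes that work with the carriers were taken from lists of related functions. Of 4 measured family members with other symbols 1 rose: Mtch1, an outer membrane protein, was at 11.09, 11.19, 11.52 and 11.33 in db/db livers, against 9.86, 10.45, 10.18, 10.31 and 10.68 in BKS livers (1.98-fold, SE 0.16 on the log2 scale, adjusted p = 0.00288). Its groups did not overlap. Ucp1 and Ucp3, uncoupling proteins of brown fat and muscle, were dim and at -0.06 and -0.70 (adjusted p = 0.951 and 0.376), and Mtch2 was at 0.07 (adjusted p = 0.876).

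Of 11 inner membrane transporters of other families 1 rose, the sideroflexin Sfxn2 (1.46-fold, adjusted p = 0.0430). Its groups overlapped, 7 of 9 refits lacking an array did not call it, and its probe set of largest variance gave -0.08. Mpc1, a subunit of the mitochondrial pyruvate carrier, was at 13.69, 13.29, 13.84 and 13.83 in db/db livers, against 13.14, 13.25, 13.45, 13.22 and 13.37 in BKS livers. Only db/db 2 lay among the BKS livers. The difference of 0.38 did not pass (SE 0.13, adjusted p = 0.120). Of 9 refits lacking an array 1 called it, the one without db/db 2 (0.51, adjusted p = 0.0240). In the others adjusted p reached 0.303.

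None of 14 genes of the machinery that imports carriers into the inner membrane was called (limma, 1 at an unadjusted p under 0.05, median 0.10), and none of the 3 outer membrane channels (limma, 0 at an unadjusted p under 0.05), among them Vdac1 (0.19, adjusted p = 0.486). Of 10 enzymes at either end of the shuttles and of citrate export 5 rose and none fell, with a median of 0.50, where 2.89% of all genes rose and 2.60% fell. The difference between this list and the others was not tested. They were Got1 and Got2, the aspartate aminotransferases of the malate-aspartate shuttle (2.79-fold and 1.34-fold, adjusted p = 1.67e-04 and 0.0231), Mdh2, the matrix malate dehydrogenase (log2 fold change 0.58, adjusted p = 0.0459), Gpd1 of the glycerol phosphate shuttle (1.97-fold, adjusted p = 0.00277) and Me1, the cytosolic malic enzyme (1.85-fold, adjusted p = 0.0345). The other 5 were not called: Acly (0.79, adjusted p = 0.117, groups not overlapping), Pcx (0.24, adjusted p = 0.470), Mdh1 (0.22, adjusted p = 0.300), Gpd2 (0.05, adjusted p = 0.949) and Cs (-0.23, adjusted p = 0.556). Got1 and Gpd1 stayed called whichever array was dropped. Mdh2 lost its call in 7, Me1 in 6 and Got2 in 4 of 9 such refits, so that 2 to 4 of the 10 enzymes rose in them: 2 without db/db 3 or BKS 3, and 3 without db/db 2, BKS 4 or BKS 5.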

How the data were processed

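Biotin-labelled RNA of 9 liver samples was hybridised to 1-colour Affymetrix arrays, per the labels' protocols. The authors deposited linear intensity values, 1 for each probe set on each array. The mean of an array after trimming 2% at each end was 500.003 to 500.005, so the arrays had been scaled. The sources used here do not name the software or the background correction, and the table has no detection calls.

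Values were taken as log2(intensity + 16). Array medians spanned 0.604, above a limit of 0.25, so the arrays were quantile normalized (limma 3.58.1, R 4.3.3). The annotation gave 34945 probe sets with 1 symbol, and 34741 of them matched the RefSeq gene table. The probe set of highest mean stood for each gene, kept in every alternative except the 2 that changed this rule. Genes were tested with lmFit and eBayes (two-sided, with an intensity trend and no term besides group), with no filter on dim genes and Benjamini-Hochberg adjustment at 0.05. The steps were tested on simulated data, with changes added only to genes above the median level. The pass mark applied to changes larger than those of most called carriers.

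The 18S sets were split at the largest gap in the mean signal of 3 control probe sets. The promoter motifs were searched without a test. The members, lists and tests were chosen with earlier results of these data known. Every carrier is named. Values on each array are given for carriers called with or without the 18S block and for Slc25a1, Slc25a3, Slc25a4, Slc25a11 and Slc25a25 besides; related genes are named where called, with Mpc1 and Vdac1 in any case, and others were chosen after their values were seen. Alternatives changed 1 choice at a time: normalization, pseudocount, filters, probe set rule, eBayes options, array weights, blocks, 18S sets and each array left out.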

Additional observations from a re-analysis of the deposited data

Results flagged for a closer look

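Of 80 sets of values (40 carriers in 2 groups) 10 held an array far from the others of its group by Dixon's criterion, where chance gives about 1 in 20. On db/db 3, Slc25a25 stood at 9.60, against 11.44 to 11.72 on the other db/db arrays. On db/db 4, Slc25a10 stood at 12.47, against 12.87 to 12.91, Slc25a44 at 11.15, against 10.83 to 10.87, Slc25a2 at 5.57, against 6.54 to 6.62, and Slc25a35 at 5.44, against 6.38 to 6.56. Slc25a18 was high on db/db 1 (6.57, against 4.99 to 5.21) and Slc25a24 low on db/db 2 (6.16, against 6.78 to 6.88). Among BKS arrays, Slc25a36 was low on BKS 4 (5.67, against 7.13 to 7.71), Slc25a38 low on BKS 3 (9.01, against 9.44 to 9.54) and Slc25a54 high on BKS 1 (6.62, against 4.30 to 4.74).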

How the results depend on the processing

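The carriers were refitted under 24 alternatives, 9 of which left out 1 array. Of 215 values of the 9 called carriers 166 were still called in the same direction. Slc25a47, Slc25a22 and Slc25a30 stayed called throughout, though the probe set rule could not alter Slc25a47 and Slc25a22, with 1 probe set each. Slc25a10 was lost once, in the high 18S arrays alone. With the probe set of largest variance Slc25a5 stood at -0.0589, Slc25a44 at -0.61 and Sfxn2 at -0.0823; the probe set differs by construction.

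The number of carriers called higher (7) was 4 after centring on the median, with the probe set of largest variance and in the low 18S arrays alone, 3 with averaged probe sets and with eBayes without a trend, and 2 in the high 18S arrays alone. The number called lower (2) was 1 after centring on the median and in the low 18S arrays alone, where the median of the carriers was 0.33. With 1 array left out 4 to 6 rose (4 without db/db 2 or db/db 4) and 2 fell, with a median of 0.04 to 0.21.

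Over all genes (526 and 473) the counts were 323 and 212 after centring, 254 and 212 without a trend, 216 and 220 in the low and 241 and 224 in the high 18S arrays alone. The count lower was 273 with averaged probe sets, 260 with the probe set of largest variance and 751 with the 18S block. With 1 array left out they were 309 to 519 and 283 to 434, lowest without db/db 3. The subsets hold fewer arrays; for the other settings the cause was not tested.

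Of the shuttle and citrate export enzymes (5 higher) 3 were higher after centring and with no further normalization, and 2 with averaged probe sets, the probe set of largest variance, no trend, and the low or the high 18S arrays alone; with 1 array left out 2 to 4 were. The other inner membrane transporters (1 higher, median 0.09) had 0 higher after centring, with either probe set rule, no trend, array weights, the replicate block, the low 18S arrays alone and without db/db 3, db/db 4, BKS 1, BKS 2, BKS 4 or BKS 5 (0 to 1), and a median of 0.36 with averaged probe sets. The import machinery had 1 higher with either probe set rule. Family members with other symbols had a median of 0.53 among genes above the median level, 0.52 with the probe set of largest variance and 0.31 in the low 18S arrays, but -0.30 in the high 18S arrays (0.00203 over all arrays).

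With the replicate number as a block 6 carriers rose and 2 fell, and Slc25a12 was lost (adjusted p = 0.0783). Equal numbers were not taken as pairs. Deviations from the group means correlated at 0.03, 0.17, -0.07 and 0.13, and 4 of 8 samples correlated best with their own number. Numbers 1, 2 and 4 had the same 18S set in both groups and number 3 did not. Pairing and the 18S split therefore cannot be told apart by these values. Dim carriers are limited by the lack of detection calls, and 17 uncalled carriers changed sign in some alternative.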
